A study of Drosophila melanogaster with 17 samples.

Results

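The miRNA arms described here are the scarce end of the miRNA repertoire of Drosophila melanogaster Schneider 2 (S2) cells, a macrophage-like line of embryonic origin. They are the 166 arms, out of 301 listed by read position in the unoxidised libraries, that have no entry in the deposited per-nucleotide mismatch table. That table holds the other 135 arms, and the scarce arms were thus chosen by their low unoxidised level. They come from 135 hairpins, and 94 of them also appear in the oxidised position table, which lists 236 arms. An arm is 1 of the 2 strands (5p or 3p) of a miRNA hairpin.

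All cells were wild type and grew in Schneider's medium with 10% serum at 25 °C. They received 500 µM 4-thiouridine (s4U), a uridine analogue built into new RNA, for 0, 0.25, 0.5, 1, 3, 6, 12 or 24 h. Iodoacetamide (IAA) then modified the s4U so that it is read as C, and each RNA was split into an unoxidised portion (8 libraries, 1 per time) and a portion oxidised with NaIO4 (8 libraries, 1 per time). A control library, not oxidised, was made without s4U and without IAA. The 8 libraries of a group are 8 times and no label gives separate cultures, so p-values of the limma and permutation tests measure only the spread between these libraries, which may be technical. Fisher's exact tests, used for T>C reads, cover counting error only. The unoxidised time course held 10321559 to 13199979 miRNA reads per library and the oxidised one 1386443 to 5610093. S2 cells are 1 cell line in bulk culture, in which fewer cells with a miRNA and less of it per cell cannot be told apart.

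As background, a miRNA hairpin is cut into a duplex, of which the guide strand stays in an Argonaute protein while the passenger (star) strand is usually destroyed. Most fly miRNA guides sit in Ago1, and Ago2 holds small interfering RNAs together with some miRNA strands, many of them passenger strands. Ago2-bound RNA receives a 2′-O-methyl group at its 3′ end, which protects it from NaIO4, so oxidised libraries keep methylated small RNAs. Positions 2 to 8 of the strand, the seed, select its targets.

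The sequences below, given as DNA letters 5′ to 3′ with the seed in capitals, carry the results that follow. The first set holds the scarce arms with the largest gains or losses after oxidation for which a full sequence was at hand, cut at their most frequent read length.

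miR-92a-5p: aGGACGGGaaggtgtcaacgtt
miR-4962-3p: aGAGAGTGagggagagagcg
miR-4910-5p: gTTTGTATggaattccatgag
let-7-5p: tGAGGTAGtaggttgtatagt
miR-2497-5p: gTAAGCATtgcaaaatgtagttgtt
miR-984-3p: aTCCAACCgaatttggctcggc
miR-263a-3p: cGTGATCTcttagtggcatcta
miR-1002-3p: gCATTGTAtgacctacttaact

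The second set pairs a scarce arm with an abundant arm that has the same seed, or shows both strands of a hairpin.

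miR-4968-5p: tAGCTGCCacggtttgttgctt
miR-980-3p: tAGCTGCCttgtgaagggctt
miR-92a-3p: cATTGCACttgtcccggcctat
miR-1006-5p: gTGAGTTTgaaattgaaatgcgtaaa
miR-1006-3p: tAAATTCGatttcttattcatag

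The third set gives the first 8 bases, as the position table holds them, of tissue miRNAs that are near absent here.

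miR-124-3p: tAAGGCAC
miR-9a-5p: tCTTTGGT
miR-100-5p: aACCCGTA
miR-125-5p: tCCCTGAG

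Levels are reads per 1000000 small RNA reads (RPM). The mean over the 8 unoxidised libraries ran from 0.0843 to 6.28 RPM across the 166 arms, with a median of 0.595 RPM. There were 75 arms below 0.5 RPM and 61 at 1 RPM or more. Summed, the 166 arms gave 166.3 to 196.0 RPM per unoxidised library, which is 0.0290% to 0.0348% of the reads on all listed arms, and 178.6 RPM in the library without s4U and IAA. In the oxidised libraries the 94 listed arms summed to 124.6 to 208.3 RPM, or 0.157% to 0.224% of the listed arm reads. The 0 h library was the highest in RPM, and the 12 h library as a share of listed arm reads. Listed arm reads count copies that share a mature sequence apiece.

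**Figure D1:**
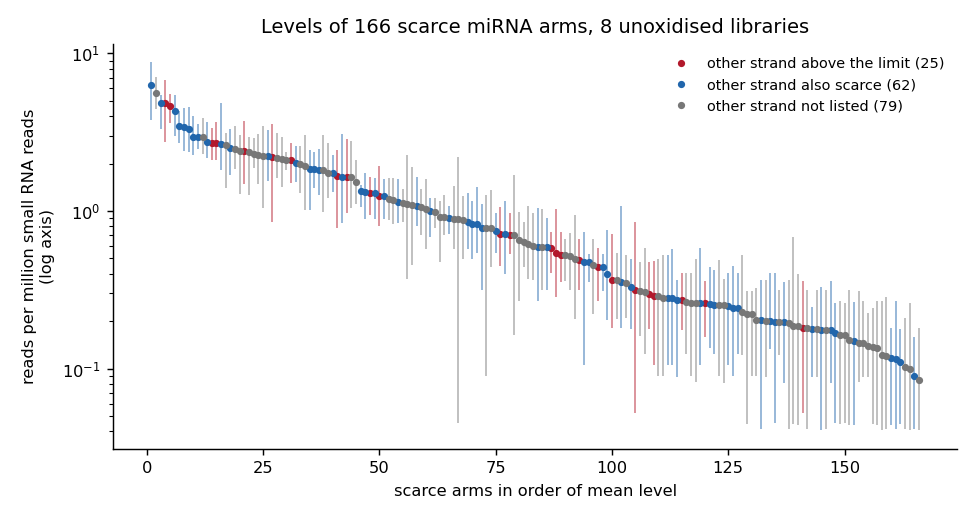
Mean level of each of the 166 scarce arms in the 8 unoxidised libraries (points; log axis, RPM), in order of level, with lines from the lowest to the highest library. Colours give the state of the other strand of the hairpin: above the limit for 25 arms, also scarce for 62 and not listed for 79.

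The limit that separates the groups lies at about 5 RPM in the mean level of an arm's highest single start position. For this limit, the mean includes the control library without s4U and IAA beside the unoxidised time course. Just inside it were miR-1006-5p at 4.89, miR-4968-3p at 4.77, miR-984-3p at 4.59, miR-4943-5p at 4.07 and miR-5-5p at 3.59 RPM. Just outside it were miR-289-5p at 5.00, miR-982-5p at 5.26 and miR-1008-5p at 5.49 RPM. The most abundant scarce arm, miR-974-5p, reached a mean of 6.28 RPM (lowest library 3.800, median 6.14, highest 8.77) only with its 2 listed starts summed. The same held for miR-2280-5p at 5.62 RPM (4.43, 5.33 and 7.04). Every other scarce arm stayed below 5 RPM with its starts summed.

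Reads of the scarce arms were less often placed where the table puts the arm. The main start matched the table's arm start for 120 of 166 scarce arms (72.3%) and for 123 of 135 other arms (91.1%). It lay 3 nt or more away for 29 scarce arms and 3 other arms. A median of 88.5% of the reads of a scarce arm were 21 to 24 nt long, the usual size of a miRNA, against 93.2% for the other arms. Position and length went together: 118 of the 120 scarce arms at the table's start had most of their reads at 21 to 24 nt, compared with 10 of the 29 that lay 3 nt or more off, of which 18 were mostly 18 to 20 nt. For miR-1, the muscle miRNA, both arms began 5 nt from the table's start, and 41.7% of the miR-1-3p reads and 3.53% of the miR-1-5p reads were 21 to 24 nt. These values are a description with no test, and whether reads at other starts come from the annotated hairpins was not tested.

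**Figure D2:**
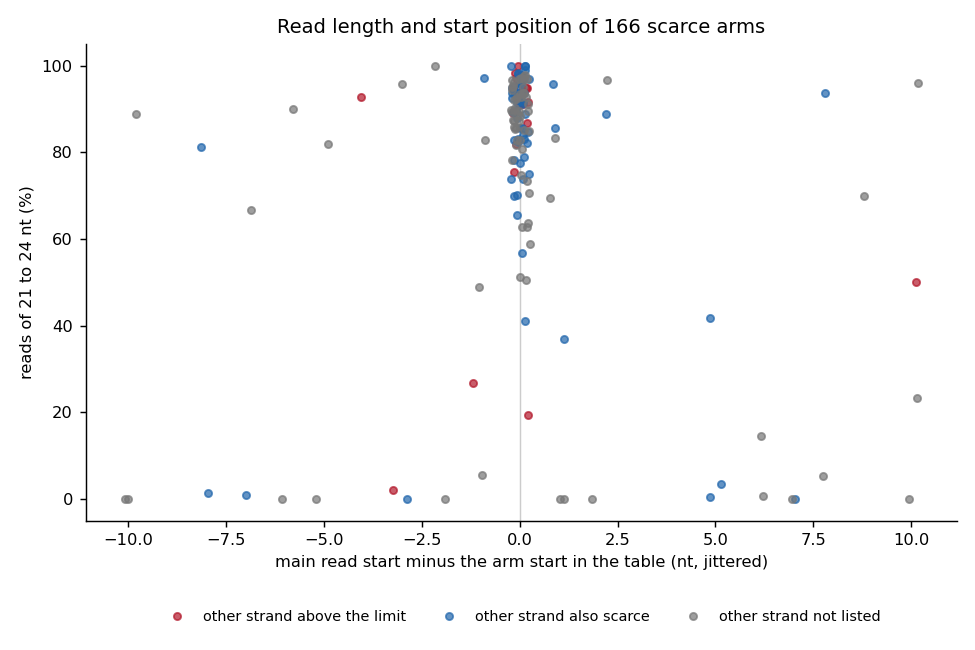
Share of reads of 21 to 24 nt (vertical axis, %) against the distance of the main read start from the arm start in the table (horizontal axis, nt, with small sideways scatter) for the 166 scarce arms in unoxidised libraries. The 120 arms at 0 lie mostly near the top, and many of the 29 arms that are 3 nt or more away lie near the bottom.

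Of the 166 scarce arms, 48 are on the tissue and stage lists, and 55 with the mirtrons. The let-7 complex, whose 3 miRNAs switch on at metamorphosis, was listed with 1 strand each. let-7-5p had a mean of 1.75 RPM (lowest 1.22, median 1.52, highest 2.68). miR-125-5p had 0.638 RPM (0.444 to 0.855) and miR-100-5p 0.252 RPM (0.0811 to 0.370). In no library did the 3 strands together exceed 3.49 RPM. The muscle miRNA miR-1 was at 0.902 RPM for the 3p and 0.473 RPM for the 5p strand, with shifted main starts.

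In the nervous system and eye list, 4 of 5 hairpins were listed, each with 1 scarce strand. miR-124-3p, the neuronal miRNA, was at 0.222 RPM (0.0900 to 0.309). miR-9a-5p, which restrains sense organ precursors, was at 2.25 RPM (1.05 to 3.48), miR-137-3p at 1.63 RPM (1.05 to 2.78) and miR-210-3p at 0.135 RPM (0.0441 to 0.268). None of these 4 arms appears in the oxidised table, which lists a start only where every oxidised library has a read, so they have no oxidised value. The Hox cluster miRNAs were among the lowest, with miR-10-5p at 0.329, miR-10-3p at 0.244 and miR-iab-4-5p at 0.195 RPM.

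Reproductive and embryonic clusters were split between the scarce and the other arms. The miR-309 cluster, which is switched on in the early embryo and clears maternal mRNA, had 10 arms listed, 7 of them scarce. miR-5-5p (3.47 RPM), miR-5-3p (3.39), miR-286-3p (2.60), miR-4-3p (2.53) and miR-3-3p (2.13) were the more abundant of these, and miR-4-5p (0.241) and miR-309-3p (0.145) the least. The 3 miR-6 guides of the same cluster were at 12.3 to 12.6 RPM and thus above the limit. Copies that share a mature sequence are counted apiece, so these levels are not to be summed. In the ovary list, miR-989-3p was at 1.93 RPM and miR-318-5p at 0.271 RPM, while the other strand, miR-318-3p, reached 31.9 RPM.

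All 12 arms of the miR-310 cluster with miR-991 and miR-992 were listed, and 8 were scarce, from miR-991-5p at 0.199 RPM to miR-991-3p at 2.24 RPM. The testis clusters had 20 listed arms, 14 of them scarce. Apart from miR-974-5p these ran from 0.123 RPM for miR-979-5p to 4.66 RPM for miR-984-3p. The main starts of miR-974-5p and miR-959-5p lay 5 and 10 nt from the table's. Of the 19 hairpins on the list, 14 had a listed arm.

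The brain and disc list gave 5 scarce strands, miR-278-5p (1.67 RPM), miR-92a-5p (0.702), miR-92b-5p (0.582), miR-31a-3p (0.528) and miR-31b-3p (0.298). In each of those hairpins the other strand was above the limit. Mirtrons, hairpins released by splicing of short introns, gave 7 scarce arms of 18 listed: miR-1006-5p (4.82 RPM), miR-1010-3p (2.38), miR-1016-5p (2.16), miR-1015-5p (0.922), miR-1007-5p (0.543), miR-1014-5p (0.262) and miR-1004-3p (0.178).

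The other strand of the hairpin divided the scarce arms into 3 sets. For 25 arms it lay above the limit, and all 25 scarce arms are labelled star in the deposited annotation. For 62 arms, the 2 strands of 31 hairpins, both were scarce. For 79 arms no other strand was listed, and all 79 are labelled mature. The label may thus follow the read levels of the 2 strands, so the 25 star labels are no separate support. In the first set the other strand was between 1.49 and 60531 times as abundant, with a median of 29.3 times, but only 4 of the 25 had an other strand above 100 RPM. These were miR-13b-1-5p (0.260 RPM against 15713 RPM for a guide that the second miR-13b hairpin shares), miR-1006-5p (4.82 against 323), miR-968-3p (2.19 against 161) and miR-278-5p (1.67 against 106). The main reads of miR-13b-1-5p started 3 nt before the table's start and 97.9% of its 47 reads were 18 to 20 nt. In the other hairpins of this set the more abundant strand was below 100 RPM, among them miR-263a (1.64 against 99.4 RPM), miR-13a (0.491 against 75.3), miR-1007 (0.543 against 60.9), miR-318 (0.271 against 31.9), miR-92b (0.582 against 30.8) and miR-1002 (2.40 against 29.5).

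Of the scarce arms, 12 share their seed with at least 1 arm above the limit. miR-5-3p at 3.39 RPM has the K-box seed, which 13 arms above the limit carry with a summed 143181 RPM (copies that share a mature sequence counted apiece), led by miR-2a-1-3p. The seed of miR-4968-5p (0.744 RPM) is that of miR-980-3p (6366 RPM). miR-286-3p shares its seed with miR-279-3p and miR-996-3p (11373 RPM together), and miR-9a-5p with miR-9b-5p and miR-9c-5p (3753 RPM together). The mirtron miR-1004-3p (0.178 RPM) shares that of miR-1003-3p (951 RPM).

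Oxidation was compared for 190 arms with at least 1 read start listed in both position tables, 73 of them scarce. Only reads at shared starts were used, and a shared start need not be the main one. A further 21 scarce arms were listed at different starts and 72 were not in the oxidised table. The test was limma on log2 values scaled with TMM, a normalization that sets the typical arm to no change, with labelling time as block. Of the 73 scarce arms, 47 were higher and 12 lower after oxidation at an adjusted p below 0.05, beside 40.0% higher and 45.8% lower among all 190 arms. The median difference was 1.37 on the log2 scale for the scarce arms and -0.32 for all arms. The rule chose arms for a low unoxidised level, and the oxidised table keeps only arms seen in every oxidised library, so these counts describe the arms that could be measured and support nothing about scarce arms in general.

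The scale mattered. In RPM, with 51 scarce arms past the filter, 24 were higher and 20 lower, beside 20.2% and 66.1% of 168 arms, and the median difference was 0.23 for the scarce arms and -1.67 for all arms. The median of all arms thus moved by more than 1 log2 unit between the scalings, and a difference is to be read relative to it. In RPM at the starts listed in both groups, as in the test, the 2 groups of libraries did not overlap for 9 scarce arms that were higher and 14 that were lower, beside 6.84% and 52.6% of all arms. The levels given below sum all listed starts of an arm, which adds reads for 11 of the 73 scarce arms. On that sum, a count added after the values were seen, the groups did not overlap for 10 higher arms (with miR-974-3p) and 15 lower ones (with miR-287-3p), beside 7.37% and 53.2% of all arms.

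**Figure D3:**
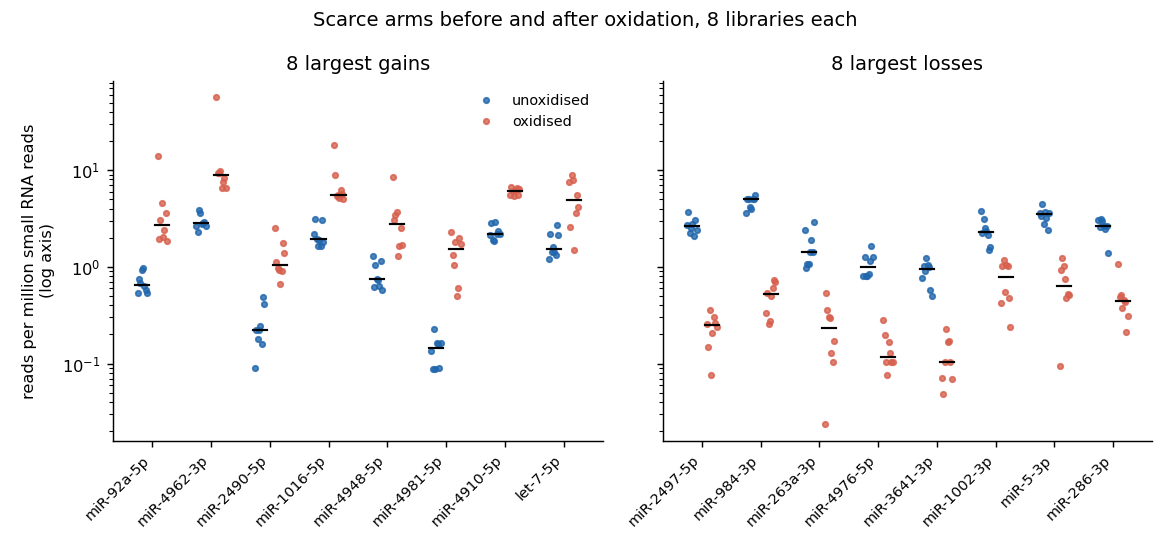
Level in RPM (log axis) of the 8 scarce arms with the largest gains and the 8 with the largest losses after oxidation on the TMM scale; each point is a library (8 per group) and black bars are medians. For miR-92a-5p every oxidised library lies above every unoxidised one, with the 0 h library of the oxidised group highest at 13.9, and for miR-984-3p every oxidised library lies below.

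miR-92a-5p, the star strand of a hairpin in an intron of jigr1 (dm6 3R, 25646506 to 25646600, plus strand), showed the largest gain. It was at 0.535 to 0.973 RPM in unoxidised libraries (median 0.652) and 1.86 to 13.9 RPM in oxidised ones (median 2.72). The groups did not overlap, and the 0 h oxidised library stood apart. The difference was 3.37 ± 0.41 (SE) on the TMM log2 scale (limma, adjusted p = 1.03e-05) and 3.03 without the 0 h pair.

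let-7-5p (dm6 2L, 18472034 to 18472111, plus strand, in lncRNA:let7C) was at 1.22 to 2.68 RPM before (median 1.52) and 1.503 to 8.88 RPM after oxidation (median 4.87). It was higher in 8 of 8 pairs, although the groups overlapped. The difference was 2.73 log2 units (limma, adjusted p = 2.86e-05). T>C reads, which mark label but occur on this arm without it, made up 58.0% of its reads in the 0 h oxidised library and 37.2% to 90.6% in the later ones, against 15.6% to 51.9% in the unoxidised time course, and their part in the gain was not tested. The other let-7 complex strand with a test, miR-125-5p, was at 0.444 to 0.855 RPM before and 0.103 to 3.77 RPM after, a difference of 1.15 with an adjusted p of 0.0516 by limma.

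miR-4962-3p, from a hairpin in an intron of Tlk on X, was at 2.29 to 3.87 RPM before (median 2.82) and 6.48 to 56.5 RPM after (median 8.84), so that the groups did not overlap. Only 5.29% of its reads were 21 to 24 nt and its main start was 8 nt from the table's. miR-4910-5p, from an intron of CG3225 on 2L, varied least between oxidised libraries among these 8 gains, at 1.86 to 2.92 RPM before (median 2.19) and 5.45 to 6.71 RPM after (median 6.14). Its difference was 2.74 log2 units (limma, adjusted p = 3.24e-08), with no overlap and its reads at the table's start. The mirtron miR-1016-5p, in an intron of Opa1, was at 1.63 to 3.13 RPM before and 5.07 to 18.3 RPM after.

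The remaining large gains were miR-2490-5p (3.03), miR-4948-5p (2.91) and miR-4981-5p (2.80) on the TMM log2 scale. Of the oxidised miR-2490-5p reads, 98.1% to 100% per library carried a T>C mismatch, also at 0 h, and the unoxidised libraries had 66.7% to 100%. miR-4981-5p stood at 0.0882 to 0.225 RPM before and 0.501 to 2.28 RPM after, and its start lay 10 nt from the table's. Past the 8 largest, the gains included both arms of miR-1 (1.92 for 3p and 1.80 for 5p), at their shifted starts. None of the oxidised miR-1-3p reads and 11% of those of miR-1-5p were 21 to 24 nt. In RPM with all listed starts summed, miR-1-3p was higher in 3 of 8 pairs.

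miR-2497-5p and miR-984-3p showed the largest losses. miR-2497-5p, in an exon of her on 2L, went from 2.10 to 3.66 RPM (median 2.62) to 0.0754 to 0.361 RPM (median 0.250), a difference of -1.88 (limma, adjusted p = 1.57e-05). Of its unoxidised reads 19.3% were 21 to 24 nt and 72.2% were 25 nt or longer. miR-984-3p, a testis cluster strand on X, went from 3.61 to 5.55 RPM (median 4.99) to 0.258 to 0.734 RPM (median 0.520), a difference of -1.75 (limma, adjusted p = 2.40e-06). In both, no oxidised library reached the lowest unoxidised one.

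miR-263a-3p (-1.33), miR-4976-5p (-1.15), miR-3641-3p (-1.11), miR-1002-3p (-1.04), miR-5-3p (-1.02) and miR-286-3p (-0.99) followed on the TMM scale, all without overlap in RPM. miR-286-3p, for example, was at 1.40 to 3.10 RPM before and 0.210 to 1.08 RPM after. When arms were scaled to the total of arm reads, 3 of these, miR-1002-3p (0.20), miR-5-3p (0.31) and miR-286-3p (0.26), turned to positive differences that did not pass the threshold.

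By list, with the counts read beside the background shares above, let-7 complex strands gave 1 higher and none lower of 2 tested, the muscle list 2 of 2 higher, and the brain and disc list 2 of 2 higher (miR-92a-5p and miR-278-5p), of which miR-278-5p was lower in RPM (-0.36, limma adjusted p = 0.0225). In the miR-310 cluster 3 of 3 tested strands were higher (miR-991-3p at 2.25, miR-312-5p at 1.37 and miR-313-5p at 0.70), but in RPM miR-313-5p was lower past the threshold (-0.48, limma adjusted p = 0.0018) and miR-312-5p did not pass (0.05). The testis clusters gave 3 higher (miR-974-3p, miR-303-3p and miR-959-5p) and 1 lower (miR-984-3p) of 4. The main start of miR-959-5p lay 10 nt from the table's, with 0% of its reads at 21 to 24 nt in both groups, and that of miR-974-3p 2 nt. The miR-309 cluster gave 1 higher (miR-4-5p at 1.75) and 2 lower (miR-5-3p and miR-286-3p) of 5, whereas in RPM all 4 strands past the filter were lower (those 2, miR-3-3p and miR-5-5p). Mirtrons gave 2 higher (miR-1016-5p and miR-1014-5p) and 1 lower (miR-1006-5p at -0.86, with 26.7% of its unoxidised reads at 21 to 24 nt and 68.5% at 25 nt or longer) of 4, and the Hox and ovary lists gave 1 higher each (miR-10-3p and miR-318-5p). Of the 39 scarce arms called on both scales, 3 had opposite signs: miR-278-5p, miR-313-5p and miR-929-5p. By position, 25 of 44 scarce arms at the table's start were higher and 10 lower on the TMM scale, but 13 of 34 higher and 18 lower in RPM. Of the arms that lay 3 nt or more off, 18 of 21 were higher and 1 lower on the TMM scale, and 9 of 14 higher and 1 lower in RPM.

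The share of a scarce strand within its own hairpin does not depend on the scaling, and it could be formed for 12 of the 25 hairpins whose other strand is above the limit. It was higher after oxidation in 8 of 8 time pairs for 8 of them, and in 7 of these the groups did not overlap. The share was not formed for hairpins with both strands above the limit, so these counts show nothing particular to scarce strands. miR-92a-5p made up 8.03% to 13.7% of its hairpin's reads before (median 9.90%) and 83.3% to 98.2% after (median 91.7%), with 1100 reads against 56 of miR-92a-3p over the oxidised libraries. miR-312-5p went from a median of 10.5% to 82.3%. In the other direction, miR-984-3p went from 39.5% to 16.6% and miR-263a-3p from 1.40% to 0.253%, lower in 8 of 8 pairs. The rule used the low level of 1 strand, so these shares are given with no test.

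**Figure D4:**
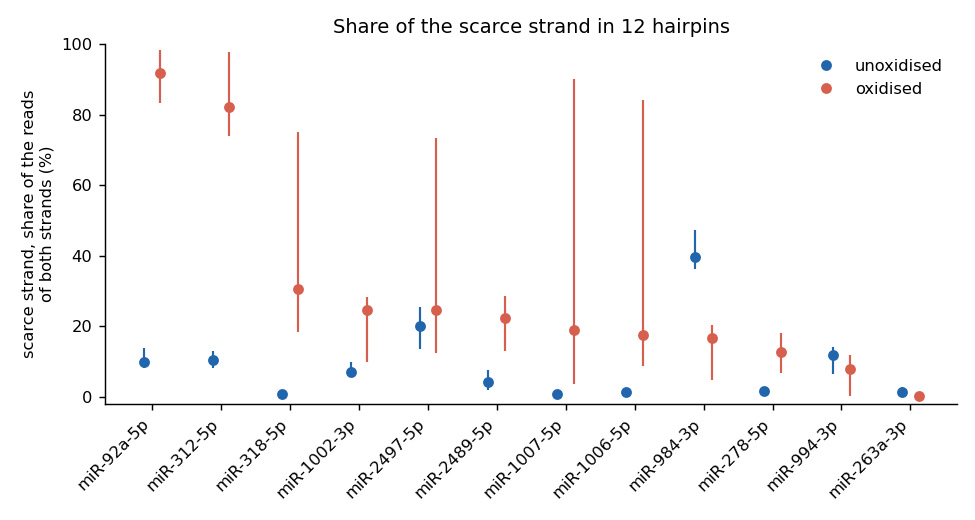
Share of the scarce strand among the reads of both strands (vertical axis, %) in 12 hairpins, before and after oxidation; points are medians and lines run from the lowest to the highest of 8 libraries. miR-92a-5p and miR-312-5p exceed 50% after oxidation, and miR-984-3p and miR-263a-3p are lower than before.

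Over labelling time, 3 of the 110 scarce arms tested passed the threshold for a change in level, close to the share over all arms. A slope on log2(1 + hours) over the 8 unoxidised libraries was tested for 245 arms with limma, and 110 of them were scarce. miR-929-5p rose and miR-968-3p and miR-4939-5p fell, beside 2.04% of all arms rising and 1.22% falling. In order of labelling time, miR-968-3p stood at 3.56, 1.94, 3.37, 3.37, 1.82, 1.52, 0.849 and 1.11 RPM, so that each of the 4 libraries up to 1 h lay above each later one. Its slope was -0.32 ± 0.07 (SE; limma, adjusted p = 0.0207). miR-4939-5p was at 2.92 to 3.04 RPM up to 3 h and at 1.28 to 1.83 RPM from 6 h (slope -0.23), and miR-929-5p at 0.991 to 1.81 RPM up to 6 h and at 3.04 and 2.63 RPM at 12 and 24 h (slope 0.24, both adjusted p = 0.0283 by limma). edgeR called 0 scarce arms, 15 of the 110 had an unadjusted limma p below 0.05, and leaving out the library of 0.5, 12 or 24 h removed all 3 calls.

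Labelling shows as reads with a T>C mismatch. Over the scarce arms at the table's start these made up 0.415% of the reads in the library without s4U and IAA and, from 0 to 24 h in order, 0.850%, 0.929%, 1.83%, 2.20%, 3.50%, 4.400%, 7.61% and 10.4% (exact 95% interval of the last 9.34% to 11.6%, counting error only). Without let-7-5p, the 1 arm at the table's start with over 10% such reads in the unlabelled unoxidised libraries, they went from 0.358% to 9.89%. The other arms stood at 0.144% before labelling and 11.4% after 24 h. Scarce arms that lay 3 nt or more off stood at 17.7% before labelling, with every library of the time course between 15.3% and 19.98%, but 3 of these 29 arms, miR-4943-5p, miR-2491-5p and miR-4978-5p, held 129 of the 138 T>C reads at 0 h. The other 26 went from 1.40% at 0 h (exact 95% interval 0.642% to 2.64%) to 3.40% at 24 h (2.17% to 5.05%), with overlapping intervals. They included miR-4972-5p and miR-4953-3p, with T>C in 8.93% of 56 and 8.89% of 45 reads at 0 h. For the oxidised libraries the arms were classed by their main start in the unoxidised ones. Of the arms at the table's start, 60 were listed after oxidation, 16 of them only at starts not listed before it. Their share started at 4.54%, ran between 2.77% and 9.79% up to 6 h and ended at 10.1%. let-7-5p alone held 188 of the 204 T>C reads at 0 h and 280 of the 301 at 1 h. Without it the share was 0.384%, 0.210%, 0.403%, 0.761%, 1.01%, 1.36%, 2.77% and 4.29% in order of time, higher at each step after 0.25 h. The arms left still included miR-3645-5p and miR-4987-3p, with T>C in 85.7% of 7 and 75% of 4 reads in the oxidised 0 h library. These shares without single arms were added after the values were seen.

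**Figure D5:**
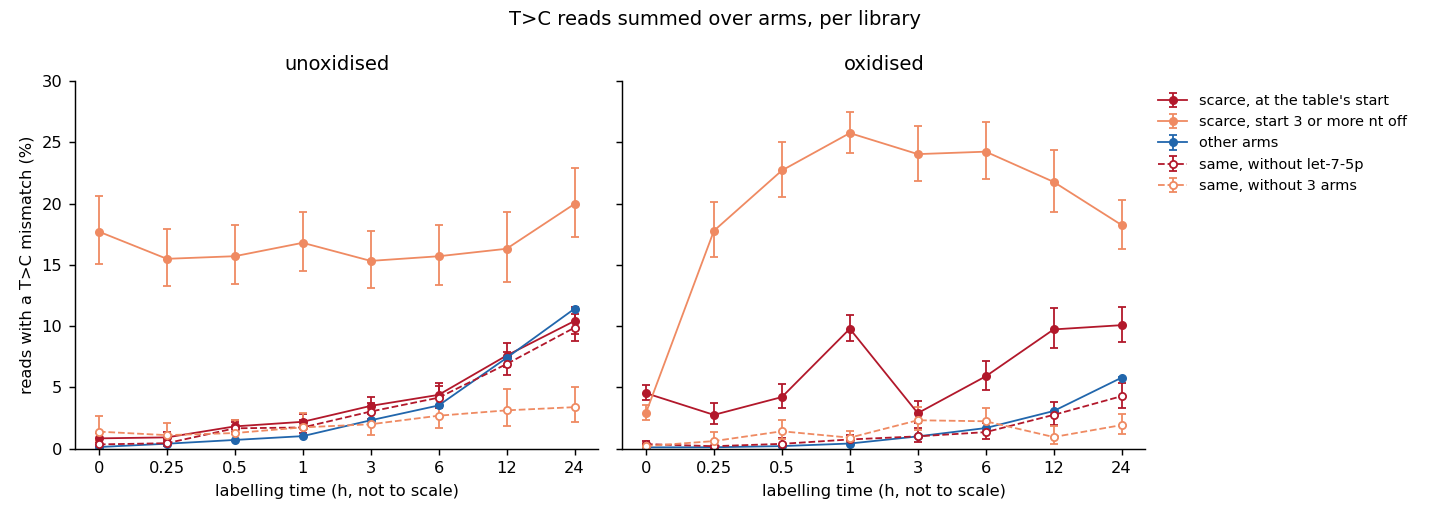
Reads with a T>C mismatch (vertical axis, %) summed over arms in each library, by labelling time (horizontal axis, h, evenly spaced); bars are exact 95% intervals for counting error. Scarce arms are classed by their main start in the unoxidised libraries, also for the oxidised group. Dashed lines leave out the arms with over 10% T>C reads in the unlabelled unoxidised libraries (let-7-5p at the table's start and 3 arms that are 3 nt or more off). They end at 9.89% and 3.40% in the unoxidised group.

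Some scarce arms carry T>C mismatches without any label. In the 2 unlabelled unoxidised libraries (0 h and the one without s4U and IAA) 8 of 166 scarce arms had more than 10% such reads, compared with 3 of 135 other arms. All reads had one for miR-2490-5p (8 reads), miR-2491-5p (75 reads) and miR-4973-3p (6 reads). The share was 96.7% for miR-4978-5p, 93.6% for miR-4943-5p, 83.3% for miR-1014-5p, 41.9% for let-7-5p, and 2 of 10 reads for miR-210-3p. Of these 8 arms only let-7-5p had its main start at the table's. In the oxidised libraries the let-7-5p share was 58.0% before labelling, then 37.2% to 88.6% up to 1 h and 80.6% to 90.6% from 3 h on. The oxidised 0 h library, also unlabelled, had T>C in 85.7% of 7 miR-3645-5p, 75% of 4 miR-4987-3p and 70% of 10 miR-2500-3p reads. These arms had 0% in the unlabelled unoxidised libraries. Where the T>C reads of all these arms come from was not tested.

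With the planned minimum of 200 reads in both the 0 h and the 24 h library, no scarce arm could be tested for T>C in the unoxidised group and none of 2 was called in the oxidised group (96.7% and 93.7% of all arms tested were called). At 50 reads, 7 of 17 unoxidised scarce arms were higher at 24 h by a one-sided Fisher's exact test between those 2 libraries, which covers counting error only and treats reads as independent molecules, beside 89.5% of all arms. miR-1006-5p went from 0 of 118 reads, which allows up to 3.08%, to 19.6% of 112 reads (adjusted p = 6.04e-08). miR-932-5p reached 18.3%, miR-3-3p 16.98%, miR-5-3p 12.5%, miR-263a-3p 11.4%, miR-984-3p 10.4% and miR-3643-3p 7.14%. The highest share, 97.4% for miR-4943-5p, was 92.6% at 0 h and did not pass. The lowest were miR-2280-5p, miR-4968-3p and miR-974-5p, with no T>C read among 106 to 124 reads at 24 h, and miR-967-5p and miR-4962-3p with 1 and 2 reads. A read can show T>C only where it holds a T, and the deposited U count differs between arms (2 for miR-92a-5p, 9 for miR-982-3p). No share was corrected for this, so the order of arms is not an order of labelling. In the oxidised group, 5 of 12 were called beside 82.4% of all arms: let-7-5p (89.3% against 58.0%), miR-991-3p (11.04%), miR-4951-5p (5.19%), miR-4910-5p (4.86%) and miR-1016-5p (3.40%). miR-4981-5p (4.00%) did not pass. miR-92a-5p had no T>C read among 54 at 24 h, which allows up to 6.60%, and miR-4968-3p and miR-4982-3p had none among 280 and 179. With the 12 and 24 h libraries summed against those of 0 and 0.25 h, a comparison added after the values were seen, 28 of 51 unoxidised scarce arms passed beside 84.9% of all arms, and 7 of 25 oxidised ones beside 75.2%.

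Over libraries, the mean T>C share from 3 to 24 h was set against that from 0 to 1 h by an exact one-sided permutation test over the 8 libraries, a comparison added after the values were seen. In the unoxidised group 18 of 55 scarce arms passed, beside 65.8% of 190 arms, and 0.0143 is the smallest p it can give. Among them were miR-9a-5p (0.316% to 8.71%), miR-982-3p (0.735% to 12.9%), miR-313-3p (1.697% to 13.1%) and miR-929-5p (1.74% to 11.9%), and miR-3-3p and miR-967-3p had no T>C read up to 1 h. In the oxidised group 1 of 34 passed, miR-991-3p (0.216% to 5.25%), beside 50.4% of all arms.

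Between strands of a hairpin, T>C reads were set side by side for the early labelled libraries (0.25 to 1 h summed). The scarce strand had the higher share in 16 of 25 hairpins and the lower in 9, and 8 scarce strands had no T>C read. The exact intervals of the 2 strands were apart in 8 hairpins, with the scarce strand higher in 6 and lower in 2 (miR-13a and miR-4961). miR-13a-5p had none among 37 reads against 28.2% for miR-13a-3p, which stood at 30.7% at 0 h already, and miR-4961-3p had none among 32 reads against 96.3% for miR-4961-5p, which stood at 92.8% at 0 h. miR-968-3p had 14.9% (exact 95% interval 10.2% to 20.7%) against 0.600% for miR-968-5p. miR-1006-5p had 7.37% (4.87% to 10.6%) against 0.607% for miR-1006-3p, miR-263a-3p 7.14% against 0.259%, miR-278-5p 5.93% against 0.390% and miR-1002-3p 5.65% against 1.06%. At 12 and 24 h summed, miR-1006-5p stood at 17.3% and miR-1006-3p at 11.1%, and miR-278-5p at 3.92% and miR-278-3p at 5.65%. The intervals cover counting error only, and no test of these differences was made. The shares were not corrected for the number of T in each strand.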

How the data were processed

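The authors deposited counts (library totals; reads per nucleotide in the mismatch tables) and, per read start and length, a signal in RPM for all reads and for T>C reads. From the values, the authors made this signal by dividing reads by the deposited small RNA total. Per the submitters' processing notes cutadapt 1.7.1, Bowtie 1.2.2, Picard and dm6 were used; the sources used here give no settings. RPM times the deposited small RNA total gave whole reads for 100% of values (tolerance 0.001). Starts were summed per arm. The position tables list only starts with at least 1 read in every library of the table, so an arm not listed has no value and is not at 0. RNA of 18 to 30 nt was sequenced, with random bases in the adapters; no removal of PCR duplicates is stated.

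Arms and lists were chosen with earlier results of these data known. Limma 3.58.1 (trend, robust) tested log2 of (arm reads per 1000000 miRNA arm reads, scaled with TMM, plus 0.5), with Benjamini-Hochberg adjustment over all arms, in arms with a mean of at least 0.5; a log2 fold on this scale understates changes of low arms. Labelling time was the block because the labels say that each RNA was split; deviations of libraries of the same time correlated at -0.03 to 0.37. edgeR 4.0.16 and DESeq2 1.42.0 on the recovered reads, other scalings, filters and left-out libraries were alternatives. On simulated data both limma and Fisher steps were tested. Shares carry exact Clopper-Pearson intervals. Coordinates (1-based) and host genes come from the BDGP6 annotation, matched by FlyBase identifier for 134 of 135 hairpins. Sequences come from the deposited tables, 38 scarce arms having the full text. The sequence and seed match of 1 scarce arm are not reported here.

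Named arms were the measured strands of the fixed lists, the scarce strands of the 10 most abundant other strands, the 5 most abundant scarce arms, those next to the limit, the 8 largest gains and losses and the steepest slopes past the threshold, and the 5 highest and lowest T>C percentages. The T>C rule used 50 reads because no unoxidised scarce arm had 200. Arms named for seeds, unlabelled T>C reads, list and hairpin examples beyond these were chosen after their values were seen. Tools were R 4.3.3, Python 3.11.15, scipy 1.17.1 and matplotlib 3.10.9.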

Additional observations from a re-analysis of the deposited data

Results flagged for a closer look

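In groups of 8 libraries, 45 sets of values were searched for a lowest or highest library that stood apart by Dixon's criterion, and 9 were found; chance gives about 1 in 20. The oxidised 0 h library accounts for 7 of them. In it miR-4962-3p was at 56.5 RPM (next 9.85), miR-1016-5p at 18.3 (next 8.91), miR-92a-5p at 13.9 (next 4.60), miR-4948-5p at 8.44 (next 3.69), miR-1006-5p at 2.47 (next 1.29) and miR-286-3p at 1.08 (next 0.516). In the same library miR-2280-5p was the lowest, at 5.50 RPM (next 12.8). In the unoxidised group, miR-286-3p was lowest at 24 h with 1.40 RPM (next 2.47) and miR-4968-3p lowest at 6 h with 3.31 RPM (next 4.55). Without the 0 h pair the differences after oxidation were 2.80 for miR-4962-3p, 2.80 for miR-1016-5p, 3.03 for miR-92a-5p, 2.75 for miR-4948-5p, -1.05 for miR-1006-5p, -1.16 for miR-286-3p and 2.82 for miR-2280-5p on the TMM log2 scale, each past the threshold (limma).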

How the results depend on the processing

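Of 73 scarce arms, 47 were higher and 12 lower after oxidation. With small RNA totals it was 24 higher and 20 lower of 51, with arm totals 60 and 1, and with a mean of at least 5 it was 33 calls, 28 higher and 5 lower, of 37. Without the replicate block 60 were called, 47 higher and 13 lower. Leaving out 1 time gave 46 to 47 higher, 10 to 14 lower and 56 to 61 calls in all. Where no share over all arms is given above, for oxidation or slopes, the counts show nothing particular to scarce arms. The signs of the 16 named arms held except with arm totals, where miR-1002-3p (0.20), miR-5-3p (0.31) and miR-286-3p (0.26) reversed and 4 more losses did not pass. The 3 slope calls (1 rise, 2 falls) became 0 with edgeR, with hours as the predictor and with a mean of at least 5; with arm totals there were 0 rises, and leaving out 1 library gave 0 to 7 calls, 0 to 2 rises and 0 to 5 falls. The T>C calls moved from 0 to 7 of 17 unoxidised arms and 5 of 12 oxidised arms at 50 reads. There were 2 added settings. With 12 and 24 h against 0 and 0.25 h, the calls were 28 of 51 and 7 of 25. With the library without s4U and IAA at 50 reads they were 14 of 24 unoxidised scarce arms, beside 143 of 159 arms in all. The filters change which arms enter; for the scalings, the cause was not tested. With a few reads per library, most scarce arms allow no test of labelling by arm.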
